A study of Homo sapiens with 12 samples.

Results

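The genes described here encode proteins that license, start and carry out DNA replication as cells pass from G1 into S phase. They were the 48 genes of a list of symbols, found as the rows of the deposited count table whose Ensembl ID carries each symbol. Each symbol matched 1 of the 57992 IDs in the table, and all 48 were among the 16022 genes with enough counts to be tested. Expression was measured by mRNA sequencing in 12 libraries. All came from cultures with microglia-like character (iMGLs, modelled on the macrophages of brain tissue) that had been differentiated from H1, an established human pluripotent stem cell line. The groups were MEF2C knockout cells given lipopolysaccharide (LPS) and the compound BMS265246 (KO LPS BMS, 2 libraries), knockout cells given LPS (KO LPS, 2 libraries), wild-type cells given LPS (WT LPS, 2 libraries), knockout cells given vehicle (KO, 3 libraries) and wild-type cells given vehicle (WT, 3 libraries). MEF2C is a transcription factor expressed in microglia, LPS is a bacterial cell wall component sensed by TLR4, and the series title speaks of inhibition of CDK2, a kinase that drives entry into S phase. No group held wild-type cells with the compound or the compound without LPS. The sources used here do not give the kind of edit, the number of knockout clones, the doses or the times, and they do not say whether replicates came from separate differentiations, so p-values measure only the spread between these libraries.

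In G1 the origin recognition complex, CDC6 and CDT1 load the MCM2 to MCM7 ring onto DNA, and CDC45 and the GINS complex later turn that ring into the active helicase. DNA polymerase alpha with its primase starts each strand, polymerases delta and epsilon extend it with the clamp PCNA, and FEN1 and LIG1 join the pieces. E2F transcription factors, released from RB proteins by cyclin-dependent kinases, are known to switch on many of these genes in late G1. Most microglia of the healthy adult brain are not in the cell cycle.

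Total counts per library lay between 13888283 and 17639136, and a count of 0 would allow up to 0.154 to 0.236 CPM, a limit set by counting error only. Levels are CPM, counts scaled by library size and TMM factor. The replicates of KO LPS differed most, with a chi-square per degree of freedom of 11.1 between their counts, against 2.02 to 6.99 for the other replicate pairs, so results that rest on 1 of its libraries are named as such. MEF2C was at 136, 129 and 135 CPM in the KO libraries, against 193, 183 and 177 CPM in the WT libraries, so transcripts of the gene were still counted in cells labelled knockout, and with the edited part unknown this level does not check the knockout. Of 16 microglial markers 15 were tested, and CSF1R averaged 2114 ± 6.79 CPM (SD, n = 3) in WT cells. The 16 markers summed to 8116 and 7393 CPM in KO LPS BMS, 6324 and 7141 CPM in KO LPS, 7257 and 6362 CPM in WT LPS, 7020, 7338 and 7117 CPM in KO and 7725, 7616 and 7803 CPM in WT. Of the 15 tested, 2 rose and 7 fell in KO against WT (10.2% and 11.4% of all genes tested). With LPS 1 rose and 7 fell in WT cells (28.9% and 30.8% of all genes). In KO cells 2 rose and 6 fell with LPS (24.5% and 20.3%), and 10 rose and 4 fell with the compound (22.3% and 25.5%). SALL1, a defining gene of brain microglia, was at or near 0 in all 12 libraries, with a highest value of 0.158 CPM. Of 8 markers of pluripotent cells, LIN28B alone was tested and carried nearly the whole summed level. It averaged 23.7 ± 1.33 CPM (SD, n = 2) in KO LPS BMS, 41.6 ± 5.49 CPM (SD, n = 2) in KO LPS, 38.4 ± 5.10 CPM (SD, n = 2) in WT LPS, 50.96 ± 1.15 CPM (SD, n = 3) in KO and 32.6 ± 1.45 CPM (SD, n = 3) in WT, while POU5F1, NANOG, SOX2, LIN28A, DPPA4, TDGF1 and ZFP42 were at or near 0. Of 10 haematopoietic progenitor markers, GATA2 supplied most of the sum, with 195 ± 13.9 CPM (SD, n = 2) in KO LPS BMS, 172 ± 31.4 CPM (SD, n = 2) in KO LPS, 109.8 ± 18.6 CPM (SD, n = 2) in WT LPS, 141 ± 7.69 CPM (SD, n = 3) in KO and 117 ± 2.85 CPM (SD, n = 3) in WT. KIT and MYB made up nearly all the rest and differed in direction. KIT averaged 30.5 ± 0.494 CPM (SD, n = 2) in KO LPS BMS, 18.9 ± 1.82 CPM (SD, n = 2) in KO LPS and 16.3 ± 1.22 CPM (SD, n = 2) in WT LPS. Without LPS, KIT averaged 13.9 ± 0.496 CPM (SD, n = 3) in KO and 11.1 ± 0.904 CPM (SD, n = 3) in WT. MYB averaged 9.39 ± 1.02 CPM (SD, n = 2) in KO LPS BMS and 14.1 ± 0.839 CPM (SD, n = 3) in WT. CD34, MPO, PRTN3, ELANE, AZU1, SPINK2 and HOXA9 averaged under 1 CPM in every group. Of 6 endothelial markers, PECAM1, which is also found on myeloid cells, supplied nearly the whole sum. PECAM1 averaged 467 ± 4.80 CPM (SD, n = 2) in KO LPS BMS, 319.8 ± 25.4 CPM (SD, n = 2) in KO LPS, 234 ± 19.03 CPM (SD, n = 2) in WT LPS, 569 ± 16.9 CPM (SD, n = 3) in KO and 523 ± 17 CPM (SD, n = 3) in WT, and the highest group mean of the other 5 was 3.88 CPM, for CDH5 in KO. The part of these 3 lists in the results below was not tested.

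Taken over the whole set, these genes were highest in WT cells and lower in every other group. Their summed level was 1405 and 1346 CPM in KO LPS BMS, 1553 and 1537 CPM in KO LPS, 1571 and 1565 CPM in WT LPS, 2140, 2189 and 2157 CPM in KO and 2518, 2517 and 2513 CPM in WT. The group means were 54.7%, 61.4%, 62.3% and 85.9% of the WT mean in KO LPS BMS, KO LPS, WT LPS and KO cells. In bulk samples fewer cells in S phase and less RNA per cell cannot be told apart. WT was the group of highest mean for 41 of the 48 genes, and the group of lowest mean was KO LPS BMS for 24, WT LPS for 15 and KO LPS for 9. Replicates were close, with a median coefficient of variation of 5.36% and a highest of 25.4%.

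**Figure D1:**
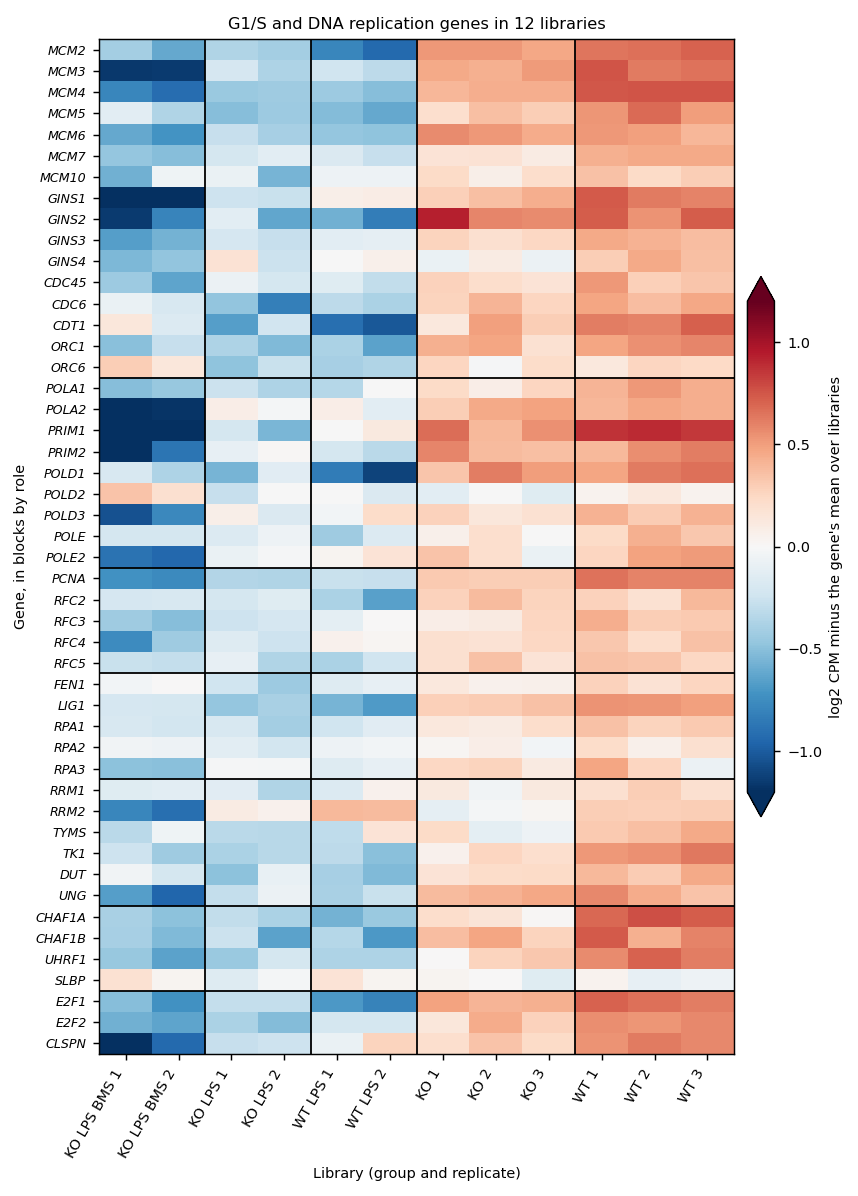
Level of each of the 48 genes (rows, in blocks by role) in each of the 12 libraries (columns), as log2 CPM minus the gene's mean over libraries, red higher and blue lower. WT and KO libraries are red in nearly all rows, the LPS libraries are blue in most, and SLBP, RRM2 and POLD2 do not follow that pattern.

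Per kilobase of exon, PCNA was the most abundant of the genes, with a mean of 86.5 RPKM over all libraries. RPA2 followed at 37.1 RPKM, MCM7 at 29.5 RPKM, TK1 at 27.8 RPKM and SLBP at 24.9 RPKM. POLE2 at 1.44 RPKM, CHAF1B at 1.504 RPKM and GINS4 at 1.67 RPKM were the least abundant. The order differed between groups, since SLBP, at 26.8 RPKM in KO LPS BMS and 24.2 RPKM in WT, was below MCM3 (30.8 RPKM) in WT but above it (8.65 RPKM) in KO LPS BMS. The genes lay on many chromosomes. For 11 of 48 (22.9%) the annotation placed another protein-coding gene head to head, against 9.2% of the protein-coding genes tested. Head to head means starts on opposite strands within 1000 bases, with both genes running away from each other.

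Because E2F factors are known regulators of this machinery, the 250 bases before the start of each gene were searched for 4 E2F words, TTTCCCGC, TTTCGCGC, TTTGCCGC and TTTGGCGC, on both strands, in RefSeq promoters of GRCh38.p14. A window was found for 42 of the 48 genes, and 15 of the 42 (35.7%) held at least 1 word, against 4.4% of 10590 windows of protein-coding genes tested and 2.8% of all windows. Windows of 28 genes of G2/M and mitosis held an E2F word in 7.1%, and held the cell-cycle homology words TTTGAA or TTCGAA in 60.7%, against 4.8% of the windows of the replication genes. CCAAT, on either strand, stood in 54.8% of the windows of the replication genes and in 34.9% of those of protein-coding genes tested. A match is a description of letters and not a shown binding site. The windows given here are 3 with a word (CDT1 and MCM6, whose genes fell with LPS, and POLA2, whose gene was among the largest falls with the compound) and 2 without one (RRM2 and SLBP, whose genes did not pass the test with LPS). They are chosen examples, and the windows of MCM2, POLD1, CHAF1A and TK1, whose genes also fell with LPS, held no E2F word. A link between the words and the LPS response was not tested. Capitals mark the E2F words on either strand, each line runs 5′ to 3′ on the gene's strand, and the words of MCM6 overlap in pairs. The windows of CDT1, POLA2, RRM2 and SLBP overlap the GENCODE span of their gene, because that annotation holds transcripts with an earlier start.
CDT1 (chr16:88803539-88803788, plus strand): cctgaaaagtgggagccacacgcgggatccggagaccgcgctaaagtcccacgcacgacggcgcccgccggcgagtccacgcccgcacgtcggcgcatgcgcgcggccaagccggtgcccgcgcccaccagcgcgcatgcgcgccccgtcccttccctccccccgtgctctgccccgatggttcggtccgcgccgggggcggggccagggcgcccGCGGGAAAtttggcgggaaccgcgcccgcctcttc
MCM6 (chr2:135876444-135876693, minus strand): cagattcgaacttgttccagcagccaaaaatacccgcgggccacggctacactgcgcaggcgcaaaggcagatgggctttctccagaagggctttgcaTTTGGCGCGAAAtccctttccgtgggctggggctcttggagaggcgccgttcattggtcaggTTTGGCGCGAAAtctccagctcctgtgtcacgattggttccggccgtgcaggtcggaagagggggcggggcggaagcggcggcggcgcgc
POLA2 (chr11:65261712-65261961, plus strand): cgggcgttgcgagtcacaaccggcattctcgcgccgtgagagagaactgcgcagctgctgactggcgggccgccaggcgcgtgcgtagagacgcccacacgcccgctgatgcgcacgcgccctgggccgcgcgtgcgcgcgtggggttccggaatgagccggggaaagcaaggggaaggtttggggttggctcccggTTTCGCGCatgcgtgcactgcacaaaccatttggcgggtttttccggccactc
RRM2 (chr2:10122489-10122738, plus strand): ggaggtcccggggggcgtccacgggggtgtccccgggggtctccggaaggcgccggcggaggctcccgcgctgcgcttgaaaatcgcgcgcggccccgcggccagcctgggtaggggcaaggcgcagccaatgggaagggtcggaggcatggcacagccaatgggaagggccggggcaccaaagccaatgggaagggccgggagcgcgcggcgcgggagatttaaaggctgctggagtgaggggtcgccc
SLBP (chr4:1712320-1712569, minus strand): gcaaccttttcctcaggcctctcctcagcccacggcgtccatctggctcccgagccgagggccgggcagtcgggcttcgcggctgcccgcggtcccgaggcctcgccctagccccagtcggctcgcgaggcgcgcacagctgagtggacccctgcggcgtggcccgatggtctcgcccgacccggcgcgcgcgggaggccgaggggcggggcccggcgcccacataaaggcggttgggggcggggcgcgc

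Among the 16 genes of the helicase and of origin licensing, CDT1, the loading factor that recruits the MCM ring, differed widely between groups. CDT1 (ENSG00000167513, chromosome 16, 88803213 to 88809258) was at 14.3 and 11.5 CPM in KO LPS BMS, 8.19 and 11.01 CPM in KO LPS and 6.91 and 6.38 CPM in WT LPS. Without LPS it was at 14.1, 18.2 and 15.9 CPM in KO and 19.8, 19.6 and 21.3 CPM in WT. All LPS libraries except 1 of KO LPS BMS lay below all libraries without LPS, and the WT LPS libraries were the lowest of all. MCM2 (ENSG00000073111, chromosome 3, 127598223 to 127622436), a subunit of the ring, was at 30.5 and 26.3 CPM in KO LPS BMS, 31.4 and 30.4 CPM in KO LPS and 23.4 and 21.1 CPM in WT LPS. Its level was 57.9, 57.9 and 55.7 CPM in KO and 63.1, 63.7 and 66.1 CPM in WT. The WT LPS libraries were again the lowest, and no library with LPS reached a library without it. MCM3 was at 31.4 and 31.7 CPM in KO LPS BMS, 61.01 and 54.5 CPM in KO LPS and 59.6 and 56.7 CPM in WT LPS. Without LPS, MCM3 stood at 96.5, 94.5 and 100.3 CPM in KO and 119, 108 and 111 CPM in WT. For this ring subunit the compound group stood apart below both LPS groups, which overlapped. CDC6, which acts with CDT1 in loading, was at 15.4 and 14.3 CPM in KO LPS BMS, 11.7 and 9.23 CPM in KO LPS and 13.2 and 12.6 CPM in WT LPS. Without LPS, CDC6 stood at 19.6, 21.7 and 19.6 CPM in KO and 22.7, 21.1 and 22.5 CPM in WT. ORC6, a subunit of the origin recognition complex, was at 20.6 and 18.4 CPM in KO LPS BMS, 12 and 13.96 CPM in KO LPS and 12.7 and 13.01 CPM in WT LPS. Without LPS, ORC6 stood at 20, 16.6 and 19.5 CPM in KO and 18.3, 20.1 and 19.8 CPM in WT. For both loading genes the KO LPS BMS libraries lay above the KO LPS libraries, and for ORC6 they overlapped the libraries without LPS. The GINS subunit GINS1 was at 6.22 and 5.41 CPM in KO LPS BMS, 12.4 and 12.2 CPM in KO LPS and 15.4 and 15.6 CPM in WT LPS. Without LPS, GINS1 stood at 17.9, 18.8 and 19.9 CPM in KO and 24.4, 22.6 and 22.1 CPM in WT, so that no group overlapped another. For 29% of all genes tested the KO LPS values lay wholly below the WT LPS values. The helicase activator CDC45 was at 10.6 and 9.27 CPM in KO LPS BMS, 13.7 and 12.4 CPM in KO LPS and 12.96 and 11.7 CPM in WT LPS. Without LPS, CDC45 stood at 17.4, 16.7 and 16.1 CPM in KO and 20.5, 17.5 and 18.1 CPM in WT. MCM4, another ring subunit, was at 41.4 and 37.9 CPM in KO LPS BMS, 52.2 and 52.9 CPM in KO LPS and 52.6 and 49.9 CPM in WT LPS. Without LPS, MCM4 stood at 94.2, 96.2 and 96.7 CPM in KO and 119, 119.9 and 120.2 CPM in WT, with the 2 LPS groups without the compound overlapping.

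Of the 9 genes of polymerases and primase, PRIM1 and POLA2 were each far lower in KO LPS BMS than in any other group. PRIM1 (ENSG00000198056, chromosome 12, 56731596 to 56752373), the catalytic primase subunit, was at 2.92 and 2.58 CPM in KO LPS BMS, 8.13 and 6.43 CPM in KO LPS and 9.37 and 10.2 CPM in WT LPS. Without LPS it was at 14.97, 12.4 and 13.8 CPM in KO and 17.2, 17.6 and 16.9 CPM in WT. The 5 groups did not overlap and stood in that order from low to high. Of all genes tested 29% also lay wholly lower in KO LPS than in WT LPS. POLA2 (ENSG00000014138, chromosome 11, 65261762 to 65305589), the accessory subunit of polymerase alpha, was at 12.6 and 14.6 CPM in KO LPS BMS, 34.8 and 32.3 CPM in KO LPS and 34.7 and 30.02 CPM in WT LPS. Without LPS, POLA2 stood at 40.3, 44.9 and 45.7 CPM in KO and 43.3, 45.3 and 44.4 CPM in WT. KO overlapped WT and KO LPS overlapped WT LPS, while both KO LPS BMS libraries lay far below every other library. POLD1 (ENSG00000062822, chromosome 19, 50384204 to 50418016), the catalytic subunit of polymerase delta, was at 43.02 and 37.9 CPM in KO LPS BMS, 33.2 and 44.6 CPM in KO LPS and 27.4 and 22.6 CPM in WT LPS. Without LPS, POLD1 stood at 61.9, 74.98 and 69.4 CPM in KO and 68.1, 75.3 and 77.7 CPM in WT. Here the compound group fell within the range of KO LPS, and WT LPS was lowest. POLD2, another delta subunit, was at 45.9 and 41.3 CPM in KO LPS BMS, 29.9 and 36.05 CPM in KO LPS and 36.1 and 32.1 CPM in WT LPS. Without LPS, POLD2 stood at 33.3, 36.1 and 32.8 CPM in KO and 37.3, 39.5 and 37.4 CPM in WT, and was 1 of 3 genes whose highest mean was in KO LPS BMS. POLE2, a subunit of polymerase epsilon, was at 2.21 and 2.12 CPM in KO LPS BMS, 3.87 and 4.04 CPM in KO LPS and 4.19 and 4.57 CPM in WT LPS. Without LPS, POLE2 stood at 5.16, 4.70 and 3.87 CPM in KO and 4.86, 5.71 and 5.82 CPM in WT.

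PCNA (ENSG00000132646, chromosome 20, 5114953 to 5126626), the sliding clamp that tethers polymerases to DNA, showed little spread within groups. It was at 72.8 and 71 CPM in KO LPS BMS, 94.3 and 93.5 CPM in KO LPS and 100.2 and 98.95 CPM in WT LPS. Without LPS, PCNA stood at 149, 148 and 147 CPM in KO and 189, 182 and 182 CPM in WT. The groups stood in that order from low to high with no overlap. Between KO LPS and WT LPS, however, PCNA did not pass the test, and 29% of all genes tested also lay wholly lower in KO LPS. FEN1, the flap nuclease of the lagging strand, was at 48.7 and 50.01 CPM in KO LPS BMS, 42.05 and 36.9 CPM in KO LPS and 44.8 and 46.4 CPM in WT LPS. Without LPS, FEN1 stood at 54.1, 51.7 and 52.03 CPM in KO and 60.3, 56.1 and 59.4 CPM in WT. In contrast with PCNA, its KO LPS BMS libraries lay above both LPS groups without the compound.

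RRM2 (ENSG00000171848, chromosome 2, 10120698 to 10131419) encodes the small subunit of ribonucleotide reductase, which makes the deoxynucleotides for replication. Its level was 64.2 and 58.6 CPM in KO LPS BMS, 118 and 114 CPM in KO LPS and 144 and 143 CPM in WT LPS. Without LPS, RRM2 stood at 102, 109 and 112 CPM in KO and 135, 134 and 135 CPM in WT. WT LPS was the highest group, which held for no other of the 48 genes, and KO LPS BMS was the lowest. TK1, the thymidine kinase of the salvage pathway, was at 41.8 and 37.01 CPM in KO LPS BMS, 38.2 and 39.5 CPM in KO LPS and 40.1 and 35.02 CPM in WT LPS. Without LPS, TK1 stood at 51.6, 59.4 and 57.2 CPM in KO and 71.2, 72.9 and 77.03 CPM in WT. TYMS, the thymidylate synthase, was at 9.61 and 11.7 CPM in KO LPS BMS, 9.61 and 9.58 CPM in KO LPS and 9.77 and 13.5 CPM in WT LPS. Without LPS, TYMS stood at 14.1, 11.1 and 11.6 CPM in KO and 15.02, 15.4 and 16.5 CPM in WT. Its count is uncertain, because 39.1% of its exon bases lie over ENOSF1 on the opposite strand and the sources used here do not state how the counting treated strand.

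CHAF1A (ENSG00000167670, chromosome 19, 4402662 to 4445018) encodes the large subunit of the chaperone that places histones on new DNA. It was at 27.03 and 25.3 CPM in KO LPS BMS, 28.8 and 27.2 CPM in KO LPS and 23.9 and 26.1 CPM in WT LPS. Without LPS, CHAF1A stood at 41.04, 39.6 and 35.9 CPM in KO and 57.3, 60.8 and 58.8 CPM in WT, with the LPS groups close together. UHRF1, which guides DNA methylation to new strands, was at 30.02 and 26.3 CPM in KO LPS BMS, 30.3 and 35.6 CPM in KO LPS and 31.9 and 31.9 CPM in WT LPS. Without LPS, UHRF1 stood at 41.4, 49.4 and 51.7 CPM in KO and 60.96, 67.4 and 63.2 CPM in WT. SLBP (ENSG00000163950, chromosome 4, 1692800 to 1712555), which binds the stem-loop of histone mRNAs, was at 57.1 and 51.4 CPM in KO LPS BMS, 45.02 and 49.4 CPM in KO LPS and 56.4 and 51.3 CPM in WT LPS. Without LPS, SLBP stood at 51.3, 50.3 and 45.5 CPM in KO and 51.7, 47.04 and 48.1 CPM in WT. It was the only gene of the 48 that passed the test in none of the 7 comparisons, and its lowest group mean was 47.2 ± 3.09 CPM (SD, n = 2) and its highest 54.2 ± 4.07 CPM (SD, n = 2).

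E2F1 (ENSG00000101412, chromosome 20, 33675683 to 33686404), an activator of the G1/S genes, was at 9.69 and 8.37 CPM in KO LPS BMS, 11.3 and 11.4 CPM in KO LPS and 8.57 and 7.94 CPM in WT LPS. Without LPS, E2F1 stood at 19.4, 18.3 and 18.6 CPM in KO and 22.5, 21.9 and 21.2 CPM in WT. KO LPS was the highest of the LPS groups and no LPS library reached a library without LPS. E2F2 was at 11.98 and 11.5 CPM in KO LPS BMS, 13.7 and 12.4 CPM in KO LPS and 15.4 and 15.4 CPM in WT LPS. Without LPS, E2F2 stood at 19.6, 24.3 and 21.6 CPM in KO and 26.3, 25.7 and 26.7 CPM in WT. CLSPN, whose product claspin relays the checkpoint signal of stalled forks, was at 7.88 and 9.78 CPM in KO LPS BMS, 15.3 and 15.7 CPM in KO LPS and 17.6 and 22.4 CPM in WT LPS. Without LPS, CLSPN stood at 21.4, 23.6 and 21.9 CPM in KO and 27.02, 28.6 and 27.8 CPM in WT. Both genes had the order KO LPS BMS, KO LPS, WT LPS, KO and WT from low to high by mean.

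**Figure D2:**
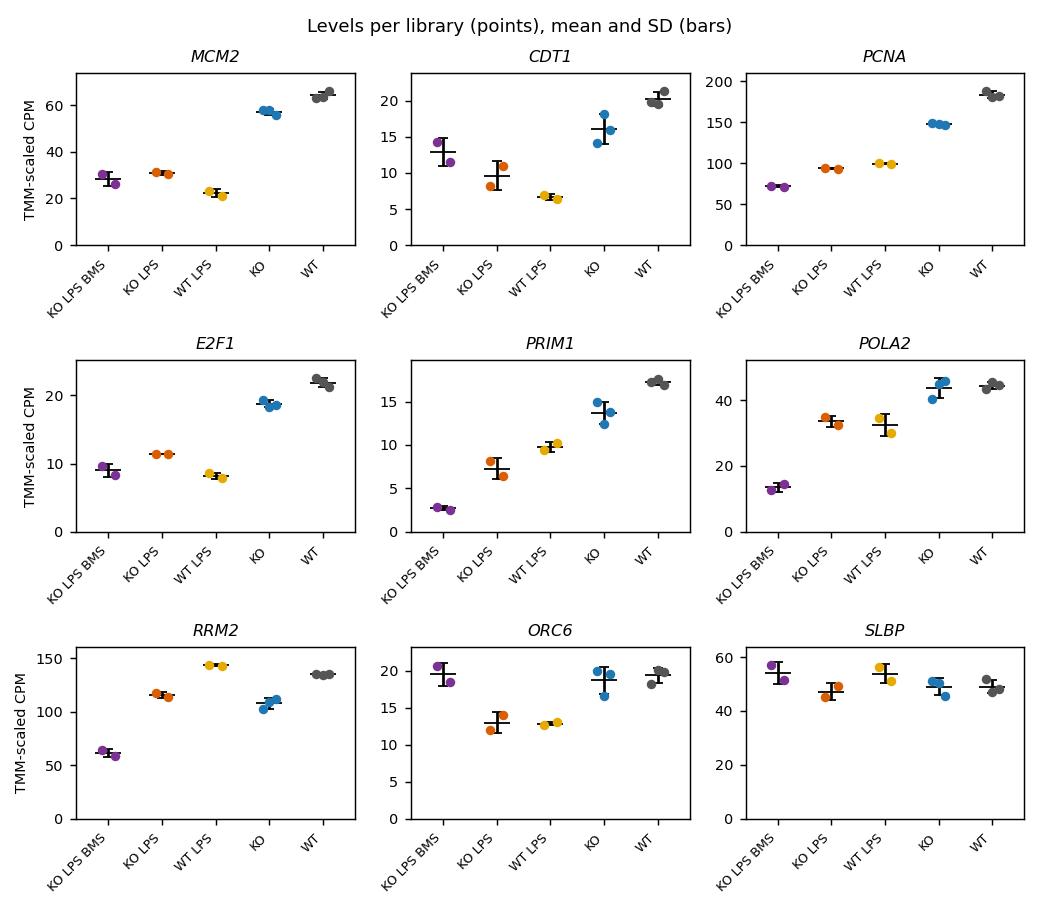
Level of 9 of the genes in TMM-scaled CPM (vertical axes from 0) in the libraries of each group (points), with the group mean and SD (bars). MCM2, CDT1, PCNA and E2F1 have lower means in all LPS groups than without LPS, PRIM1, POLA2 and RRM2 are lowest in KO LPS BMS, ORC6 in KO LPS BMS overlaps the groups without LPS, and SLBP varies little.

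The comparison of KO with WT cells asked how MEF2C knockout cells differed from wild-type cells without the stimulus. The replication genes tended to be lower in KO cells: 19 of 48 fell, 0 rose and 29 did not pass the test, against 11.4% of all genes tested called lower. Their median log2 fold change was -0.18, against -0.02 over all genes tested, and in 31 of the 48 the KO values were all below the WT values (22.3% of all genes). At an unadjusted p under 0.05, edgeR gave 28 lower and 0 higher, and DESeq2 and limma-voom called 0 higher. CHAF1A changed most (-0.60 ± 0.07, adjusted p = 4.72e-07). The values in brackets after gene names, here and in the other comparisons, are log2 fold changes ± SE with the adjusted p of edgeR's quasi-likelihood test, and genes said to come first in a group or list have the lowest adjusted p in it. In the helicase and licensing group 7 of 16 fell, with the lowest adjusted p for MCM4 (-0.32 ± 0.05, adjusted p = 5.97e-05) and MCM7 (-0.30 ± 0.05, adjusted p = 0.000108). In nucleotide supply 3 of 6 fell, which were TK1 (-0.39 ± 0.07, adjusted p = 0.000148), RRM2 (-0.32 ± 0.05, adjusted p = 8.17e-05) and TYMS (-0.36 ± 0.12, adjusted p = 0.0364). PCNA fell by 0.31 ± 0.05 (log2, adjusted p = 2.83e-05) and was the 1 of 5 clamp and clamp loader genes that did so. Also lower were UHRF1 (-0.42 ± 0.08, adjusted p = 0.000381), CDT1 (-0.33 ± 0.11, adjusted p = 0.0395) and E2F2 (-0.26 ± 0.09, adjusted p = 0.0305). CLSPN (-0.32 ± 0.09, adjusted p = 0.0153) and LIG1 (-0.21 ± 0.07, adjusted p = 0.0272) fell too. So did 3 of 9 polymerase and primase genes with POLE (-0.24 ± 0.07, adjusted p = 0.0192) and PRIM1 (-0.33 ± 0.10, adjusted p = 0.0221) first. MCM2 (-0.17 ± 0.06, adjusted p = 0.0581), CDC6 (-0.12 ± 0.09, adjusted p = 0.396) and CDC45 (-0.16 ± 0.09, adjusted p = 0.256) did not pass. Nor did POLE2 (-0.26 ± 0.15, adjusted p = 0.243), E2F1 (-0.22 ± 0.09, adjusted p = 0.0706) and SLBP (0.00 ± 0.07, adjusted p = 0.995). The count was 11 to 13 when any 1 of the WT or KO libraries was left out and 11 with DESeq2's Wald test. CHAF1A, MCM4, MCM5, MCM7, PCNA, RRM2, TK1 and UHRF1 kept their call in each of the 21 alternatives. The other 11 lost it without at least 1 of the WT or KO libraries, CDT1, E2F2 and LIG1 without WT replicate 1, 2 or 3 and KO replicate 1 or 3 among others.

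The comparison of WT LPS with WT cells gave the response of wild-type cells to the stimulus. Nearly the whole set fell, with 44 of 48 genes down, 0 up and 4 that did not pass, against 30.8% of all genes tested called lower. The median log2 fold change was -0.65, against -0.07 over all genes, and for 46 genes the WT LPS values were all below the WT values (38.4% of all genes). The count of 0 higher held at an unadjusted p under 0.05 and with DESeq2 and limma-voom. All 16 helicase and licensing genes fell, with the lowest adjusted p for MCM4 at 42.8% of its WT level (-1.23 ± 0.06, adjusted p = 1.29e-13) and MCM2 at 34.6% of it (-1.53 ± 0.08, adjusted p = 1.86e-13). CDT1 fell furthest, to 32.8% of its WT level (-1.61 ± 0.15, adjusted p = 3.07e-09). CDC6 fell by 0.78 ± 0.11 (log2, adjusted p = 2.37e-06), and CDC45 by 0.60 ± 0.11 (log2, adjusted p = 8.66e-05). Of the polymerases and primase 7 of 9 fell, with POLD1 (-1.56 ± 0.13, adjusted p = 2.82e-07) and POLE (-0.62 ± 0.08, adjusted p = 1.55e-06) first. All 5 clamp and clamp loader genes fell, with PCNA (-0.89 ± 0.05, adjusted p = 4.44e-12) and RFC2 (-0.80 ± 0.09, adjusted p = 6.4e-08) first. All 5 genes of strand processing and single-strand binding fell, with LIG1 (-1.14 ± 0.08, adjusted p = 4.22e-11) and the single-strand binding subunit RPA1 (-0.49 ± 0.07, adjusted p = 1.41e-06) first. TK1 (-0.97 ± 0.08, adjusted p = 6.74e-10), DUT, which removes dUTP (-0.85 ± 0.10, adjusted p = 1.18e-07), and TYMS (-0.42 ± 0.14, adjusted p = 0.0113) were lower. So were CHAF1A (-1.24 ± 0.08, adjusted p = 1.17e-11) and UHRF1 (-1.001 ± 0.09, adjusted p = 6.81e-09). The activators fell too, E2F1 (-1.41 ± 0.11, adjusted p = 2.36e-10) and E2F2 (-0.77 ± 0.10, adjusted p = 1.12e-06). The 4 genes not called were RRM2 (0.09 ± 0.06, adjusted p = 0.19), SLBP (0.14 ± 0.08, adjusted p = 0.136), POLD2 (-0.16 ± 0.09, adjusted p = 0.122) and POLE2 (-0.32 ± 0.17, adjusted p = 0.118). With library size as the only scaling, the log2 median over all genes shifted by -0.29 and 26.7% of all calls were higher, against 48.4% with TMM, and the replication genes then had a median of -0.93 and 47 lower, with RRM2 at -0.20. TYMS, POLD3, RPA2 and RRM1 lost their call without WT LPS replicate 1, and GINS4, MCM10, RFC4 and RPA3 without either WT LPS replicate.

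The comparison of KO LPS with KO cells gave the response of knockout cells, with another set of control libraries. Here 40 of 48 genes fell, 0 rose and 8 did not pass, against 20.3% of all genes tested called lower, and the median was -0.49, against -0.00 over all genes. None was higher at an unadjusted p under 0.05 with edgeR, and 0 were called higher by DESeq2 or limma-voom. For 43 genes the KO LPS values were all below the KO values (30.1% of all genes). Of the helicase and licensing genes 15 of 16 fell, with MCM4 (-0.86 ± 0.06, adjusted p = 1.08e-10) and MCM6 (-0.85 ± 0.07, adjusted p = 9.29e-10) first. MCM2 (-0.89 ± 0.08, adjusted p = 2.42e-09), CDC6 (-0.95 ± 0.11, adjusted p = 4.54e-07) and CDT1 (-0.75 ± 0.14, adjusted p = 0.000135) were lower as well. CDC45 fell by 0.36 ± 0.11 (log2, adjusted p = 0.0134). Of the polymerases and primase 6 of 9 fell, with PRIM1 (-0.91 ± 0.13, adjusted p = 6.66e-06) and POLD1 (-0.83 ± 0.13, adjusted p = 0.000128) first, while POLE2 did not pass (-0.20 ± 0.18, adjusted p = 0.389). PCNA (-0.66 ± 0.06, adjusted p = 1.45e-09) and the other 4 clamp genes fell, with RFC2 next (-0.48 ± 0.09, adjusted p = 7.16e-05). Also lower were LIG1 (-0.74 ± 0.08, adjusted p = 7.87e-08), RPA1 (-0.44 ± 0.07, adjusted p = 1.14e-05), TK1 (-0.53 ± 0.08, adjusted p = 1.23e-05) and UNG, which removes uracil from DNA (-0.60 ± 0.11, adjusted p = 0.000116). Among the chromatin and E2F genes there were falls of UHRF1 (-0.53 ± 0.10, adjusted p = 8.67e-05), CHAF1A (-0.47 ± 0.08, adjusted p = 5.38e-05), E2F2 (-0.74 ± 0.11, adjusted p = 5.59e-06) and E2F1 (-0.72 ± 0.11, adjusted p = 6.74e-06). RRM2 (0.10 ± 0.06, adjusted p = 0.17), TYMS (-0.35 ± 0.15, adjusted p = 0.0564) and SLBP (-0.05 ± 0.08, adjusted p = 0.615) did not pass. With library size as the only scaling, the median over all genes shifted by -0.25 and 25.5% of all calls were higher, against 54.7% with TMM, with 47 of the genes lower and RRM2 at -0.15. Upper-quartile scaling moved that median by -0.11 and that share to 40.7%. CDC45, MCM10, POLD3, RFC5, RPA2 and RRM1 lost their call without KO LPS replicate 2.

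**Figure D3:**
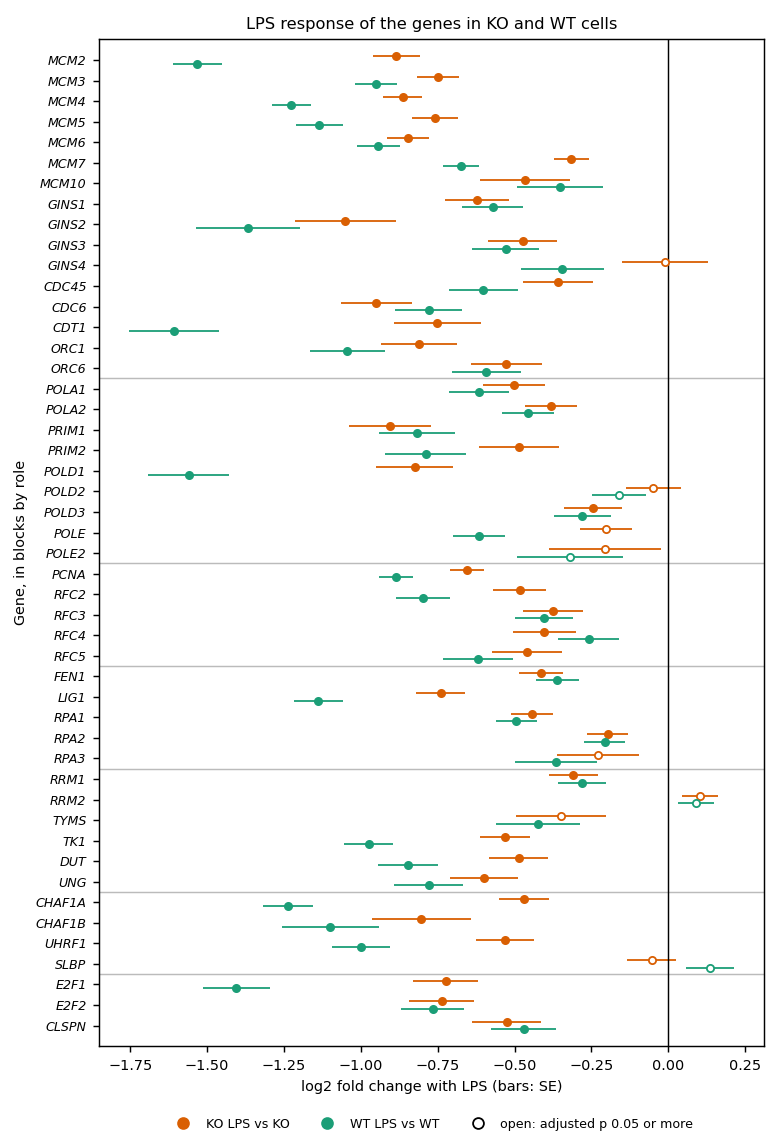
Log2 fold change with LPS (horizontal axis, bars are SE) of each of the 48 genes in KO cells (orange) and WT cells (green), with open points where the adjusted p was 0.05 or more. Nearly all points lie left of 0, and MCM2, CDT1, POLD1, CHAF1A and E2F1 lie farther left in WT than in KO cells.

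The difference between the 2 LPS responses was tested as a genotype by LPS interaction, the log2 fold change in KO cells minus that in WT cells. It was positive and called for 12 of 48 genes, negative and called for 0, and not called for 36, against 6.42% of all genes called with a positive value and 5.57% with a negative one. DESeq2 and limma-voom also called 0 negative, as did edgeR at an unadjusted p under 0.05. The median was 0.15, against 0.05 over all genes. The 12 were CDT1 (0.86 ± 0.20, adjusted p = 0.0079), CHAF1A (0.77 ± 0.11, adjusted p = 0.000103), POLD1 (0.74 ± 0.18, adjusted p = 0.0196), E2F1, MCM2, UHRF1, TK1, POLE, LIG1, MCM5, MCM4 and MCM7. The values of E2F1 (0.68 ± 0.15, adjusted p = 0.00508) and MCM2 (0.65 ± 0.11, adjusted p = 0.000403) came next in size. For each of the 12 the log2 fold change with LPS was less negative in KO than in WT cells. CDT1 kept 59.7% of its level with LPS in KO cells and 32.8% in WT cells, and CHAF1A kept 72.2% in KO cells and 42.4% in WT cells. PCNA (0.23 ± 0.08, adjusted p = 0.0541), CDC6 (-0.17 ± 0.16, adjusted p = 0.538) and CDC45 (0.24 ± 0.16, adjusted p = 0.357) did not pass. Nor did TYMS (0.07 ± 0.20, adjusted p = 0.856), RRM2 (0.01 ± 0.08, adjusted p = 0.943) or POLE2 (0.12 ± 0.25, adjusted p = 0.818). E2F2 (0.03 ± 0.15, adjusted p = 0.927) and SLBP (-0.19 ± 0.11, adjusted p = 0.291) were likewise not called. The count was 7 without WT LPS replicate 2, 7 without KO LPS replicate 2 and 13 without KO LPS replicate 1. CHAF1A, E2F1, MCM2, MCM4 and MCM7 kept the call in each of the 21 alternatives. CDT1 lost it without KO LPS replicate 2, POLD1 and TK1 without WT LPS replicate 2, and LIG1, MCM5, POLE and UHRF1 without any 1 of several libraries, KO LPS replicate 2 among them. Of all calls 53.5% were positive with TMM, against 65.3% with library size only, 43.5% with DESeq2's size factors and 42.4% in fits of only the groups compared.

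The comparison of KO LPS with WT LPS cells asked how the genotypes differed under the stimulus. Few replication genes differed: 5 rose, 4 fell and 39 did not pass, against 15.6% of all genes called higher and 15% called lower, and the median was 0.02, against 0.03 over all genes. POLD1 (0.64 ± 0.15, adjusted p = 0.00588), CDT1 (0.53 ± 0.17, adjusted p = 0.0234) and MCM2 (0.48 ± 0.09, adjusted p = 0.00033) were higher in KO LPS. Also higher were E2F1 (0.46 ± 0.13, adjusted p = 0.0087) and the clamp loader subunit RFC2 (0.33 ± 0.10, adjusted p = 0.0131). PRIM1 (-0.42 ± 0.15, adjusted p = 0.036), CLSPN (-0.37 ± 0.12, adjusted p = 0.0263), GINS1 (-0.34 ± 0.12, adjusted p = 0.0324) and RRM2 (-0.31 ± 0.06, adjusted p = 0.00098) were lower. Not called were PCNA (-0.08 ± 0.06, adjusted p = 0.311), MCM4 (0.04 ± 0.07, adjusted p = 0.726), CDC6 (-0.29 ± 0.13, adjusted p = 0.0972) and CDC45 (0.08 ± 0.13, adjusted p = 0.671). TYMS (-0.28 ± 0.16, adjusted p = 0.197), POLE2 (-0.15 ± 0.20, adjusted p = 0.62) and UHRF1 (0.05 ± 0.11, adjusted p = 0.778) did not pass. E2F2 (-0.24 ± 0.12, adjusted p = 0.145) and SLBP (-0.19 ± 0.09, adjusted p = 0.104) were also not called. Only MCM2 and RRM2 kept their call in each of the 21 alternatives. There were 2 higher and 1 lower without WT LPS replicate 2, 3 higher and 1 lower without KO LPS replicate 2, and 6 higher and 7 lower without KO LPS replicate 1. POLD1 and E2F1 lost their call without WT LPS replicate 2, and CDT1, RFC2, CLSPN, GINS1 and PRIM1 without that library or without KO LPS replicate 2. The calls of CLSPN and GINS1 were also lost without KO LPS replicate 1.

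The comparison of KO LPS BMS with KO LPS cells asked what the compound did to stimulated knockout cells. The replication genes split: 21 fell, 7 rose and 20 did not pass, against 25.5% of all genes called lower and 22.3% called higher, and the median was -0.16, against -0.04 over all genes. For 27 of the 48 the KO LPS BMS values were all below the KO LPS values (37.6% of all genes) and for 10 all above (32.8%). Of the 4 largest falls, 3 were in the primase and polymerase alpha complex, where PRIM1 was at 37.7% of its KO LPS level (-1.41 ± 0.19, adjusted p = 2.38e-06), POLA2 at 40.5% (-1.30 ± 0.11, adjusted p = 2.23e-09) and the second primase subunit PRIM2 at 47.7% of it, while the catalytic subunit gene POLA1 did not pass. POLE2 (-0.87 ± 0.23, adjusted p = 0.00398) and the delta subunit POLD3 (-0.84 ± 0.11, adjusted p = 2.3e-06) also fell, so that 5 of 9 genes of this group were lower and 1, POLD2 (0.40 ± 0.10, adjusted p = 0.00176), was higher. In the helicase and licensing group 9 of 16 fell, with MCM3 (-0.87 ± 0.08, adjusted p = 1.14e-08) and GINS1 (-1.08 ± 0.14, adjusted p = 1.08e-06) first. MCM4 (-0.41 ± 0.07, adjusted p = 6.64e-05) and CDC45 (-0.39 ± 0.13, adjusted p = 0.0192) were lower as well. The 4 that rose were ORC6 (0.58 ± 0.13, adjusted p = 0.000585), CDC6 (0.50 ± 0.13, adjusted p = 0.00314), CDT1 (0.42 ± 0.16, adjusted p = 0.034) and MCM5 (0.23 ± 0.08, adjusted p = 0.0256). The first 3 take part in loading the ring onto origins, and MCM5 is a ring subunit. Not every loading gene rose, since ORC1, of the origin recognition complex, did not pass and was at 104.4% of its KO LPS level. Among the 6 genes of the MCM2 to MCM7 ring, MCM3, MCM4, MCM6 and MCM7 fell, MCM5 rose and MCM2 did not pass (-0.13 ± 0.09, adjusted p = 0.25).

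RRM2 fell to 53.0% of its KO LPS level with the compound (-0.92 ± 0.07, adjusted p = 4.77e-10), and UNG to 65.0% of it (-0.63 ± 0.13, adjusted p = 0.000575). TYMS did not pass (0.16 ± 0.16, adjusted p = 0.463). PCNA (-0.39 ± 0.06, adjusted p = 2.33e-05) and RFC4 (-0.37 ± 0.12, adjusted p = 0.0138) were the 2 of 5 clamp and loader genes that fell. In strand processing RPA3 fell (-0.48 ± 0.16, adjusted p = 0.0164), and FEN1 (0.32 ± 0.08, adjusted p = 0.00208) and LIG1 (0.22 ± 0.09, adjusted p = 0.0498) rose. CLSPN (-0.80 ± 0.14, adjusted p = 5.68e-05) and E2F1 (-0.34 ± 0.13, adjusted p = 0.0343) fell, and E2F2 did not pass (-0.16 ± 0.13, adjusted p = 0.315). None of the 4 genes of chromatin and histone supply passed, UHRF1 (-0.23 ± 0.11, adjusted p = 0.0903) and SLBP (0.20 ± 0.09, adjusted p = 0.0657) among them. Of the 21 falls 13 kept their call in each of the 21 alternatives, as did the rises of ORC6, POLD2 and FEN1. There were 13 falls without KO LPS replicate 1, 19 without KO LPS replicate 2, and 4 rises without KO LPS BMS replicate 1, and the rise of LIG1 kept its call in 4 of the 21 alternatives. The rises of CDT1 and MCM5 were lost without KO LPS replicate 1 or KO LPS BMS replicate 1, that of CDC6 without KO LPS replicate 2, and the falls of E2F1 and CDC45 without KO LPS replicate 1 or KO LPS BMS replicate 2. The falls of GINS2, GINS3, GINS4, MCM6, RFC4 and RPA3 were also lost without KO LPS replicate 1. Those of GINS2, GINS3, GINS4, RFC4 and RPA3 were lost without KO LPS BMS replicate 1 as well. Without KO LPS replicate 2 the falls of E2F1 and GINS3 were lost, and without either KO LPS replicate the rise of LIG1. E2F words stood in 7 of 17 windows (41.2%) of genes that fell and in 2 of 6 windows (33.3%) of genes that rose.

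**Figure D4:**
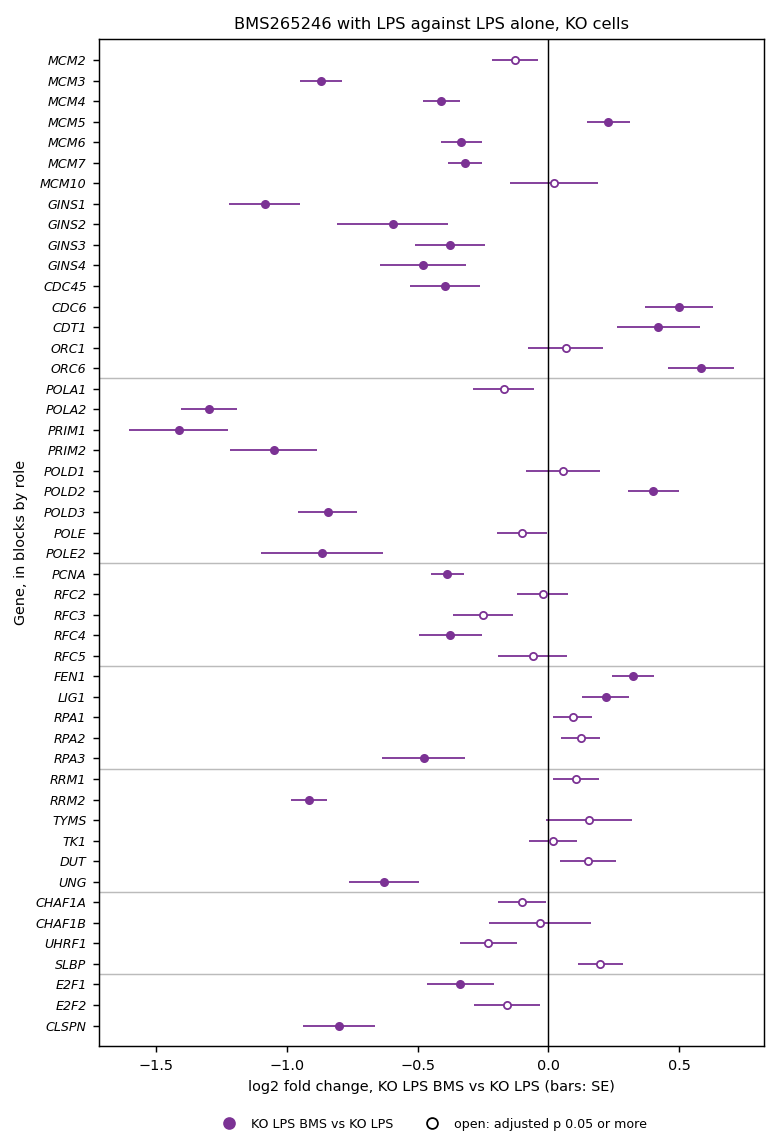
Log2 fold change of KO LPS BMS against KO LPS (horizontal axis, bars are SE) for each of the 48 genes in blocks by role, with open points where the adjusted p was 0.05 or more. PRIM1, POLA2, GINS1 and PRIM2 lie below -1, while ORC6, CDC6, CDT1 and POLD2 lie at 0.40 or above.

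Set against KO cells without LPS, 42 of 48 genes were lower in KO LPS BMS cells, 1 was higher and 5 did not pass. Of all genes 62.7% were called, 32.4% lower and 30.3% higher. The median was -0.72, against -0.06 over all genes, and for 43 genes the KO LPS BMS values were all below the KO values (40.2% of all genes). PRIM1 (-2.32 ± 0.16, adjusted p = 3.78e-11), POLA2 (-1.68 ± 0.10, adjusted p = 1.63e-12), MCM3 (-1.62 ± 0.07, adjusted p = 1.99e-14) and MCM4 (-1.27 ± 0.06, adjusted p = 1.59e-13) were among the falls. Lower too were PCNA (-1.04 ± 0.06, adjusted p = 5.04e-13), E2F1 (-1.06 ± 0.11, adjusted p = 3.06e-08) and RRM2 (-0.81 ± 0.06, adjusted p = 2.22e-10). So were MCM2 (-1.01 ± 0.08, adjusted p = 2.12e-10), CDC45 (-0.75 ± 0.12, adjusted p = 1.14e-05), POLE2 (-1.07 ± 0.21, adjusted p = 0.000127), UHRF1 (-0.76 ± 0.10, adjusted p = 7.28e-07) and E2F2 (-0.90 ± 0.11, adjusted p = 2.99e-07). CDC6 (-0.45 ± 0.11, adjusted p = 0.00119) and CDT1 (-0.33 ± 0.14, adjusted p = 0.0401), which had risen with the compound against KO LPS, were still below KO, and the call of CDT1 was lost without KO LPS BMS replicate 2 and without KO replicate 2 or 3. POLD2 (0.35 ± 0.09, adjusted p = 0.00138) was the gene that was higher. The 5 not called were ORC6 (0.06), FEN1 (-0.09), RPA2 (-0.07), TYMS (-0.19 ± 0.15, adjusted p = 0.25) and SLBP (0.14 ± 0.08, adjusted p = 0.115). Under library size scaling alone the median over all genes shifted by -0.34 and 26.1% of all calls were higher, against 48.4% with TMM, which left 47 lower and 0 higher, while upper-quartile scaling moved that median by -0.11. This comparison and the one before it share the KO LPS BMS libraries, and the KO libraries also serve the LPS comparison of KO cells.

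KO LPS is the group set against KO in the LPS comparison and the control of the compound comparison, so the 2 sets of fold changes are not independent. Of the 40 genes called lower with LPS in KO cells, 6 were called higher with the compound. Another 17 were called lower again, and 17 were not called. The genes shown here are chosen examples, and ORC6, CDC6 and FEN1 are among the 6. Side by side, ORC6 had a log2 fold change of -0.53 with LPS and 0.58 with the compound. CDC6 had -0.95 and 0.50, and FEN1 -0.41 and 0.32. RRM2 had 0.10 and -0.92, and PRIM1 -0.91 and -1.41.

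Other genes of replication and of the cell cycle were counted from lists. Of 37 tested replication genes outside the 48, 0 rose and 7 fell in KO against WT (10.2% and 11.4% of all genes). The DNA methyltransferase gene DNMT1 was first (-0.67 ± 0.05, adjusted p = 1.1e-09). DESeq2 and limma-voom also called 0 higher there, and 1 was higher at an unadjusted edgeR p under 0.05. With LPS 4 rose and 20 fell in WT cells (28.9% and 30.8% of all genes). There SAMHD1, which degrades deoxynucleotides, was first (-1.19 ± 0.05, adjusted p = 5.21e-15). In KO cells 3 rose and 19 fell with LPS (24.5% and 20.3%). KO LPS BMS against KO LPS had 3 higher and 16 lower (22.3% and 25.5% of all genes). SAMHD1 was among the higher (0.56 ± 0.05, adjusted p = 2.33e-08), and MCM8 was first among the lower (-1.08 ± 0.13, adjusted p = 6.88e-07). KO LPS against WT LPS had 4 higher and 7 lower (15.6% and 15% of all genes). The interaction had 5 positive and 1 negative (6.42% and 5.57%), and KO LPS BMS against KO 3 higher and 26 lower (30.3% and 32.4%). Medians of this list were -0.13 in KO against WT, -0.32 with LPS in WT, -0.31 with LPS in KO and -0.18 with the compound.

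The 34 genes of G2/M and mitosis had another pattern of counts. In KO against WT 31 fell and 0 rose (11.4% and 10.2% of all genes), with a median of -0.43 and NUSAP1 first (-0.54 ± 0.06, adjusted p = 1.5e-07). With LPS 7 rose and 12 fell in WT cells (28.9% and 30.8% of all genes), with a median of -0.06. In KO cells 3 rose and 5 fell with LPS (24.5% and 20.3%), with a median of -0.03. CDK1 was the called gene of lowest adjusted p in both LPS comparisons (0.52 ± 0.07, adjusted p = 1.91e-06 in WT cells). KO LPS against WT LPS had 29 lower and 0 higher (15% and 15.6% of all genes). The median was -0.43 and TOP2A came first (-0.57 ± 0.08, adjusted p = 1.86e-05). The interaction was called for 0 of the 34 by edgeR's quasi-likelihood test, by DESeq2 and by limma-voom. Of all genes edgeR called 6.42% positive and 5.57% negative. At an unadjusted edgeR p under 0.05, 1 of the 34 was positive and 1 negative. In KO LPS BMS against KO LPS 27 fell and 0 rose (25.5% and 22.3% of all genes). The median was -0.56 and NUSAP1 came first (-1.06 ± 0.08, adjusted p = 2.35e-10). For KO against WT, KO LPS against WT LPS and KO LPS BMS against KO LPS, DESeq2, limma-voom and edgeR at an unadjusted p under 0.05 also gave 0 higher. The summed level of this list was 50.1%, 72.2%, 96.0% and 73.7% of the WT mean in KO LPS BMS, KO LPS, WT LPS and KO cells, so that it was near the WT level in WT LPS cells, where the replication genes were at 62.3%. MKI67, a proliferation marker, averaged 235 ± 7.79 CPM (SD, n = 2) in KO LPS BMS, 262 ± 13.5 CPM (SD, n = 2) in KO LPS and 327 ± 57.1 CPM (SD, n = 2) in WT LPS. It averaged 269 ± 6.92 CPM (SD, n = 3) in KO and 385 ± 14.3 CPM (SD, n = 3) in WT.

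**Figure D5:**
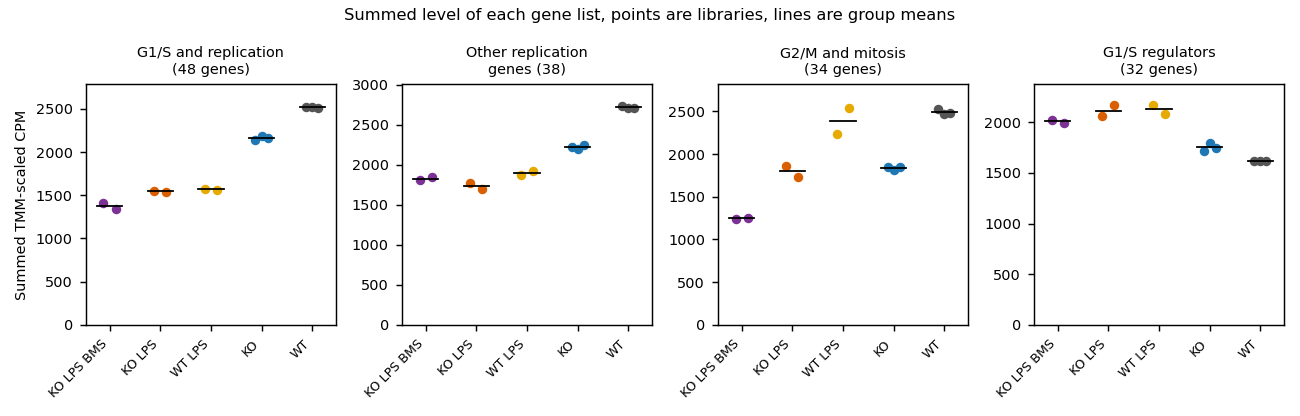
Summed level in TMM-scaled CPM (vertical axes from 0) of 4 gene lists in the libraries of each group (points), with group means (lines). The replication genes are lowest in the groups with LPS, while the G2/M and mitosis genes in WT LPS lie near WT and are lowest in KO LPS BMS.

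Of 32 regulators of the G1/S transition, 6 were higher and 8 lower in KO against WT (10.2% and 11.4% of all genes). With LPS 11 were higher and 10 lower in WT cells (28.9% and 30.8% of all genes). In KO cells LPS gave 11 higher and 8 lower (24.5% and 20.3%). KO LPS against WT LPS had 4 higher and 8 lower (15.6% and 15%), and the compound 5 and 11 (22.3% and 25.5%). CDKN1A, the inhibitor p21, averaged 517 ± 43.2 CPM (SD, n = 2) in KO LPS BMS, 652 ± 54.4 CPM (SD, n = 2) in KO LPS, 594 ± 50.4 CPM (SD, n = 2) in WT LPS, 454 ± 14.3 CPM (SD, n = 3) in KO and 275 ± 2.92 CPM (SD, n = 3) in WT. It rose in KO against WT (0.73 ± 0.06, adjusted p = 2.09e-09) and with LPS in WT cells (1.11 ± 0.06, adjusted p = 7.34e-13), and fell with the compound (-0.34 ± 0.07, adjusted p = 0.000375). CDK2 averaged 18.8 ± 2.18 CPM (SD, n = 2) in KO LPS BMS, 18.7 ± 2.27 CPM (SD, n = 2) in KO LPS, 23.2 ± 2.29 CPM (SD, n = 2) in WT LPS, 15.1 ± 0.493 CPM (SD, n = 3) in KO and 16.03 ± 1.11 CPM (SD, n = 3) in WT. Its transcript did not pass the test with the compound (-0.00 ± 0.12, adjusted p = 0.999). The cyclin E genes, whose products activate CDK2, were lower with LPS in WT cells, CCNE1 by 0.75 ± 0.15 (log2, adjusted p = 0.000203) and CCNE2 by 0.49 ± 0.17 (log2, adjusted p = 0.0166), and neither passed with the compound. CDK6, a kinase that phosphorylates RB, rose with the compound (0.94 ± 0.08, adjusted p = 6.88e-09).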

How the data were processed

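The 12 mRNA libraries were made from TRIzol-extracted RNA with a NEBNext Ultra kit, per the labels' protocols. The authors deposited 1 table of whole-number read counts per Ensembl gene. CASAVA 1.7, Cufflinks and the GRCh38 build are named per the submitters' processing notes, and the aligner, read counter, strand setting and annotation release do not appear in those notes. Samples were grouped by their labels. The 48 genes and the other gene lists were chosen with earlier results of these data known.

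Genes with too few counts were removed with filterByExpr, which left 16022 of 57992, and 24552 IDs had no count. Counts were scaled by TMM and fitted with edgeR 4.0.16 (R 4.3.3) over all 12 libraries, with 1 mean per group and robust quasi-likelihood F tests. Adjusted p-values are Benjamini-Hochberg values over all genes tested, and a gene was called at an adjusted p under 0.05. The SE of a log2 fold change is its size divided by the square root of F. The common biological coefficient of variation was 0.064. Total counts ranged from 13888283 to 17639136. TMM factors were 0.872 to 0.940 with LPS and 1.10 to 1.12 without it, so TMM sets levels relative to most genes. The test was run on simulated counts for every comparison but the interaction. Far fewer genes were changed there than were called in these data, so that run does not check the scaling or the interaction. Alternatives used other scalings, filters, DESeq2 1.42.0, limma-voom (limma 3.58.1), a replicate block, fits of only the groups compared, and each library left out. Exon lengths and positions came from GENCODE 29, and promoter windows from RefSeq (GRCh38.p14). Symbols came from a gene name table for 56948 IDs and from GENCODE 29 for 440 more, and 604 IDs had none.

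The text names a panel of 13 of the genes in every comparison, and in each of 7 role groups the 2 called genes of lowest adjusted p in each direction. Up to 3 called genes of lowest adjusted p are named from each other list. Genes named in a count of 5 or fewer, or for keeping or losing a call, were chosen after their values were seen.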

Additional observations from a re-analysis of the deposited data

Results flagged for a closer look

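The log2 response to LPS in KO cells minus that in WT cells passed the interaction test for 12 of the 48 replication genes. All 12 had a positive value, against 6.42% of all genes called with a positive value. In the helicase and licensing group the values were 0.86 for CDT1, 0.65 for MCM2, 0.38 for MCM5, 0.36 for MCM4 and 0.36 for MCM7. They were 0.77 for CHAF1A and 0.47 for UHRF1 among the chromatin genes, 0.74 for POLD1 and 0.41 for POLE among the polymerases, 0.68 for E2F1, 0.44 for TK1 and 0.40 for LIG1. The interaction equals KO LPS against WT LPS minus KO against WT, from the same libraries, so calls in those 2 comparisons are not separate support for it. Of the 12 genes, 9 were also called lower in KO against WT without LPS (CHAF1A, CDT1, UHRF1, TK1, POLE, LIG1, MCM4, MCM5 and MCM7). Among all 48 genes 19 were called lower there. The other 3 of the 12 were MCM2, POLD1 and E2F1, which with CDT1 were called higher in KO LPS against WT LPS. In that comparison 8 of the 12 did not pass. Groups of 2 or 3 libraries are too small for a test of single outlying samples.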

How the results depend on the processing

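No called gene among the 48 was called in the opposite direction under any of the 21 alternatives. Under library size scaling alone, log2 fold changes turned negative for RRM2 with LPS in WT (-0.196) and in KO cells (-0.150), and for SLBP (-0.193), CDK2 (-0.031) and CDKN1A (-0.152) in KO LPS BMS against KO. That scaling gave 2 genes lower in KO LPS against WT LPS, 4 higher in KO LPS BMS against KO LPS and 0 higher in KO LPS BMS against KO. The median of the 48 genes in KO LPS against WT LPS, 0.025 with TMM, was -0.015 with DESeq2's size factors, -0.006 with no filter and -0.017 with DESeq2's Wald test, and lay between -0.059 and 0.031 with 1 library left out. DESeq2's Wald test gave 11 lower in KO against WT, and 2 higher and 2 lower in KO LPS against WT LPS. Fits of only the groups compared gave 2 higher and 1 lower in KO LPS against WT LPS, 4 higher in KO LPS BMS against KO LPS and 2 higher in KO LPS BMS against KO. The cause was not tested for any of these changes.

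With any 1 of the 12 libraries left out, 11 to 23 genes were lower in KO against WT, 36 to 44 in WT LPS against WT and 34 to 42 in KO LPS against KO. KO LPS against WT LPS then had 2 to 6 higher and 1 to 7 lower, the interaction 7 to 13 positive, KO LPS BMS against KO LPS 4 to 7 higher and 13 to 21 lower, and KO LPS BMS against KO 39 to 42 lower.

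No source states that replicate numbers pair the libraries. Deviations of same-numbered KO and WT libraries correlated at 0.363, 0.100 and -0.014, and not every library correlated best with its own number. Other pairs of groups, which share 2 numbers each, gave values from -0.534 to 0.527 (KO LPS with KO 0.485 and 0.527, KO LPS with WT LPS -0.534). Within a group of 2 libraries the deviations mirror each other. Between such groups both same-number values are therefore equal, and swapping the numbers would only flip their sign, so they cannot show pairing. With the number as a replicate block, 16 genes were lower in KO against WT, 42 in WT LPS against WT and 41 in KO LPS against KO, the interaction had 12 positive, KO LPS BMS against KO LPS had 6 higher and 21 lower, and KO LPS BMS against KO had 1 higher and 40 lower. Groups of 2 libraries limit the precision of every comparison with LPS.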

Other observations

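Called by their response to the compound against KO LPS, the 21 genes that fell had a median span on the genome of 20.9 kb, the 7 that rose 9.7 kb and the 20 not called 32.6 kb, with median exon lengths of 4.07, 4.31 and 4.24 kb. Mesenchymal markers, mostly collagen genes, summed to 23.3 and 21.0 CPM in KO LPS BMS, 18.6 and 24.8 CPM in KO LPS, 18.6 and 17.1 CPM in WT LPS, 60.4, 39.1 and 18.3 CPM in KO and 10.5, 27.2 and 14.8 CPM in WT, with KO replicates 1 and 2 above all other libraries. Lymphocyte markers summed to 17.9 to 38.9 CPM over the 12 libraries, mostly from NKG7, and neuronal markers to 1.96 to 2.73 CPM, with MS4A1 and DCX at 0 in every library.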
